A study of Mus musculus with 7 samples.

Results

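Of the 14732 genes listed for mouse outflow tracts (OFTs), 10 are immediate early genes chosen by name: *Fos*, *Fosb*, *Jun*, *Junb*, *Egr1*, *Ier2*, *Atf3*, *Dusp1*, *Nr4a1* and *Btg2*. Each had 1 row in the table of normalized counts, and none was lost to the filter on low values. The OFT, the tube that joins the embryonic ventricles to the aortic sac, was dissected at embryonic day 11.5 and pooled from several embryos before polyadenylated RNA was sequenced. The 3 control (WT) pools are numbered 3, 4 and 5, and the 4 *Gata6STOP/+* pools are numbered 1, 3, 4 and 5. *Gata6STOP/+* embryos carried a CRISPR-Cas9 frameshift that ends the reading frame early in 1 copy of *Gata6*, which encodes a zinc finger transcription factor, and carried it in every cell. The line came from 1 selected founder backcrossed to C57BL/6. No treatment was given, and the labels give neither the sex of the embryos in a pool nor the time from dissection to lysis.

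Immediate early genes are transcribed within minutes of a stimulus from factors that are already present in the cell, without new protein synthesis, and their transcripts decay quickly. Growth factors, stretch, calcium entry and the handling of a tissue can all induce them, through kinases that act on factors bound near their start sites, such as serum response factor (SRF) with its ETS-family partners, and CREB. Most of their products are transcription factors that pass the signal on to later genes, and some close the loop by shutting the kinases down.

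The bases just before the start site were searched for motifs through which such kinases are known to act. The promoters of 8 of the 10 genes were in the RefSeq promoter table of GRCm38.p6, and those of *Egr1* and *Ier2* were not. A window of 300 bases, with 250 before the start and 50 from it on, was searched on both strands. The motifs were the CArG box bound by SRF, TGACGTCA and the TGACG that it contains (CREB and ATF factors), TGANTCA (AP-1), GCGGGGGCG (EGR factors), CCGGAA (ETS factors) and TATAAA (the TATA box). The 250 bases upstream are shown for *Fos*, the best known of these genes, for *Fosb* and *Junb*, which varied most between pools, and for *Atf3* and *Nr4a1*, which varied least. They run 5′ to 3′ on the gene's strand, with every match in capitals (CGTCA is TGACG read on the other strand). The windows are chr12:85473640-85473889 on the plus strand, chr7:19310046-19310295 on the minus strand, chr8:84978749-84978998 on the minus strand, chr1:191183334-191183583 on the minus strand and chr15:101266596-101266845 on the plus strand.
Fos: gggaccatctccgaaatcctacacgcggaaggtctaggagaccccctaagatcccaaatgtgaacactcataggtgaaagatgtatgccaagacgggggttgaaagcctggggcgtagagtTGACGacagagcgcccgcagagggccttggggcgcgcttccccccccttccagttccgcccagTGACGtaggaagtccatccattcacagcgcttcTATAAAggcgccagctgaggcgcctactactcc
Fosb: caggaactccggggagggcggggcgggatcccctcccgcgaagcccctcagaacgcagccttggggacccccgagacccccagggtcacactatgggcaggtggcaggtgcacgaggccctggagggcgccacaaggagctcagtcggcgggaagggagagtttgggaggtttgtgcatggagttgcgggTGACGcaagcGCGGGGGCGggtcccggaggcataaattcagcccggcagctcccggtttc
Junb: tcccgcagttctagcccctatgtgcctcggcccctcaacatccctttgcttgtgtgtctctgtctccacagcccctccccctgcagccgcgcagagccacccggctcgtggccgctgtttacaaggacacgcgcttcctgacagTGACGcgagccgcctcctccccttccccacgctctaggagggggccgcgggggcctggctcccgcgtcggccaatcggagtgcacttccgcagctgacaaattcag
Atf3: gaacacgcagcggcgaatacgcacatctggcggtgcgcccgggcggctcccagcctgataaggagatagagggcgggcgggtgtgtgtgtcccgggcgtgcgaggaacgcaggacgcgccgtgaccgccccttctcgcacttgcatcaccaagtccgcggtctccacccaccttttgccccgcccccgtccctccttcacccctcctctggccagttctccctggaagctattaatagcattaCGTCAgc
Nr4a1: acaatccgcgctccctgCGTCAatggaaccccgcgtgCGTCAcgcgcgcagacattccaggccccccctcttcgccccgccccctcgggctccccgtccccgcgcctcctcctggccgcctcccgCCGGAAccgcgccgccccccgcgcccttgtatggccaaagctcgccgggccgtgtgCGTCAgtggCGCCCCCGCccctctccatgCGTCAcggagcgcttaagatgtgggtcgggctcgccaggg

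The short CREB/ATF motif TGACG was found in 7 of the 8 windows, all but that of *Jun*, and in 20.8% of the 32851 windows of the table. Its full form TGACGTCA was found in 2 of the 8, those of *Btg2* (−166 to −159, counted from the start) and *Dusp1* (−143 to −136), and in 1.79% of all windows. *Nr4a1* held 4 copies of the short motif, *Fos* 2, and *Fosb*, *Junb* and *Atf3* 1 each. The EGR motif was found in 2 of the 8 (*Fosb* and *Nr4a1*, 2.91% of all windows), the ETS motif in 1 (*Nr4a1*, 14.9%) and TATAAA in 2 (*Fos* and *Junb*, 13.6%). In *Junb*, TATAAA begins at the RefSeq start itself and so lies beyond the bases printed. The GENCODE span of *Junb* starts farther downstream, at 84978718 on the minus strand. For *Junb* and *Btg2*, the first bases from the RefSeq start on were in no GENCODE transcript of the gene. Positions in these 2 genes thus depend on the annotation. Neither a CArG box (1.63% of all windows) nor TGANTCA (7.81%) was among these letters in any of the 8. Sites farther than 250 bases upstream were not searched. The most and the least variable genes thus both held TGACG, and a match is a run of letters, not a bound site.

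Reads on listed genes ranged from 17783655 to 29035529 in the control pools and from 24736761 to 34467710 in the *Gata6STOP/+* pools. *Gata6* itself, the check of the labels, stood at 315, 257 and 286 CPM (normalized counts, scaled to a common library size) in control pools 3, 4 and 5 and at 268, 203, 219 and 217 CPM in *Gata6STOP/+* pools 1, 3, 4 and 5. Pools 3, 4 and 5 of *Gata6STOP/+* thus lay below every control pool, whereas pool 1 lay above control pool 4 (log2 difference −0.34, SE 0.0987, limma adjusted *P*=0.389, and 0.0164 to 0.730 over the alternatives). Pools stood apart in other genes as well. *Xist* ranged from 1.30 CPM in *Gata6STOP/+* pool 4 to 662 CPM in control pool 4, and the Y-linked *Ddx3y* from 12.3 to 61.8 CPM. The control and *Gata6STOP/+* means were 511 and 224 CPM for *Xist* and 22.7 and 48.6 CPM for *Ddx3y*, with ranges that overlapped. Of 5 sex-linked genes, 4 were higher in *Gata6STOP/+* at an unadjusted limma *P* under 0.05 (4.17% of all genes were so). Sex was not part of the fits below. *Nppa*, a cardiomyocyte marker gene, ranged from 3.26 to 174 CPM, and the summed level of 10 red cell genes ranged from 2547 to 7817 CPM. All 6 cardiomyocyte and all 4 smooth muscle marker genes were listed above 0 in every pool. In bulk tissue, fewer cells of a type and less RNA per cell cannot be told apart.

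The first comparison asked whether the rapid-response genes differ between genotypes. None of the 10 did by the test used. With limma on log2(CPM + 0.5), 0 of the 10 passed an adjusted *P* of 0.05, beside 0 of all 14732 genes (0%), and their adjusted *P* ran from 0.654 (*Atf3*) to 0.969 (*Egr1*). At an unadjusted *P* under 0.05, the count was 0 of 10, against 1187 of all genes (8.06%). In 0 of 10 did the *Gata6STOP/+* pools lie wholly above or below the control pools, against 8.47% of all genes. The edgeR quasi-likelihood, edgeR likelihood ratio and DESeq2 tests on the recovered reads also called 0 of the 10, while they called 0, 105 and 88 of all genes. The 95% confidence interval of the difference lay within 1.5-fold in either direction for 9 of the 10, all but *Fosb*, and within 1.25-fold for 6. Mean levels were lower in *Gata6STOP/+* for 7 genes and higher for 3 (*Dusp1*, *Nr4a1* and *Btg2*), and the median log2 difference was −0.07, against −0.00073 over all genes. Without *Gata6STOP/+* pool 3 that median was 0.02, with 4 of the 10 below 0. Since nothing says which embryos entered which pool, these *P*-values measure the spread between the pools as labelled.

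**Figure D1:**
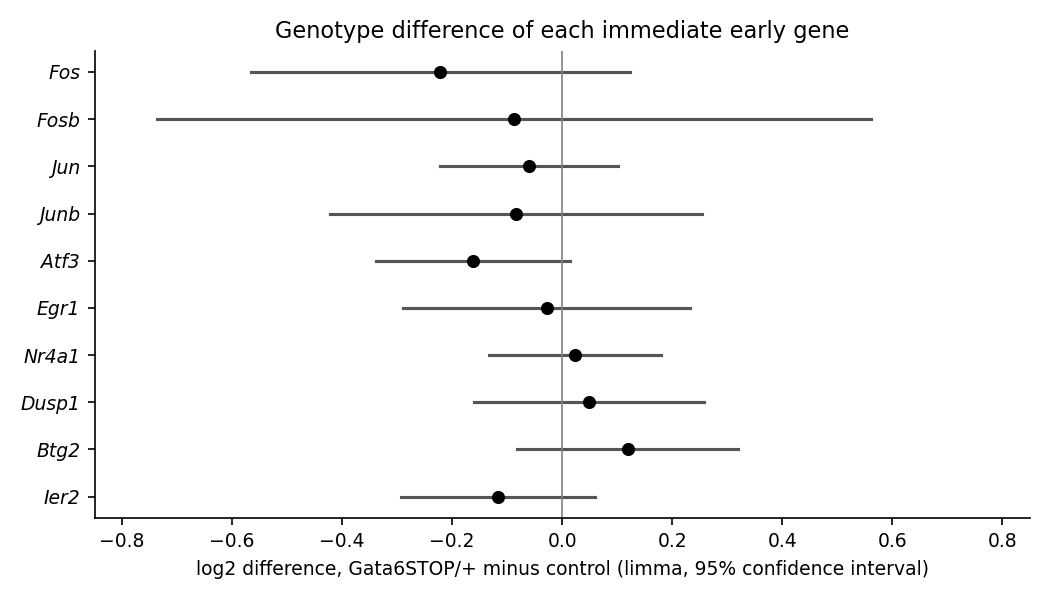
Log2 difference of each immediate early gene, *Gata6STOP/+* minus control, on the log2(CPM + 0.5) scale. Points are limma estimates from 3 control and 4 *Gata6STOP/+* pools and lines are 95% confidence intervals, each of which includes 0; that of *Fosb* is the widest (−0.74 to 0.56) and that of *Nr4a1* among the narrowest (−0.13 to 0.18).

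Fos and Fosb proteins pair with Jun proteins to form the AP-1 factor. *Fos* (chr12:85473890-85477273, plus strand) stood at 7.19, 6.80 and 7.0 CPM in control pools 3, 4 and 5 and at 7.58, 5.25, 4.68 and 6.60 CPM in *Gata6STOP/+* pools 1, 3, 4 and 5. The control pools sat close together, and the *Gata6STOP/+* pools lay on both sides of them, with pool 1 highest of the 7 and pool 4 lowest. The log2 difference of *Fos* was −0.22 (SE 0.156, 95% confidence interval −0.57 to 0.12, adjusted *P*=0.769), and it rested on 115 to 227 reads per pool. *Fosb* (chr7:19302696-19310051, minus strand) was the scarcest of the 10, with 30 to 88 reads per pool. It stood at 3.79, 1.90 and 1.68 CPM in the control pools and at 3.09, 1.45, 2.93 and 1.57 CPM in the *Gata6STOP/+* pools, in the same order. The 7 values of *Fosb* fell on 2 sides of a gap that did not follow genotype: control pool 3 and *Gata6STOP/+* pools 1 and 4 lay at 2.93 to 3.79 CPM, and the remaining 4 at 1.45 to 1.90 CPM. By counting error alone, the exact 95% Poisson interval was 2.29 to 3.69 CPM for the lowest of the upper 3 and 1.43 to 2.47 CPM for the highest of the lower 4, so those neighbours overlapped within it. The genotype means of *Fosb*, 2.46 ± 1.16 (SD, n = 3) and 2.26 ± 0.869 CPM (SD, n = 4), differed by less than either SD (log2 difference −0.09, SE 0.294, adjusted *P*=0.960).

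*Jun* and *Junb* encode the Jun partners of AP-1, of which c-Jun is the stronger activator. *Jun* (chr4:95049034-95052222, minus strand) had the most reads of the 10, 2403 to 4941 per pool. Its levels were 154, 138 and 135 CPM in the control pools and 142, 123, 138 and 144 CPM in the *Gata6STOP/+* pools. Control pool 3 was highest and *Gata6STOP/+* pool 3 lowest, and the other 5 pools lay between 135 and 144 CPM (log2 difference −0.06, SE 0.0729, adjusted *P*=0.870). *Junb* (chr8:84974484-84978718, minus strand) stood at 16.8, 13.4 and 17.2 CPM in the control pools and at 17.9, 12.1, 17.5 and 12.6 CPM in the *Gata6STOP/+* pools. Its values also left a gap that crossed genotype, with 4 pools at 16.8 to 17.9 CPM (controls 3 and 5, *Gata6STOP/+* 1 and 4) and 3 pools at 12.1 to 13.4 CPM. *Junb* and *Fosb* placed 6 of the 7 pools on the same side of their gaps, the exception being control pool 5. The genotype difference of *Junb* was −0.08 (SE 0.154, adjusted *P*=0.917). The annotated span of *Junb* overlaps that of *Prdx2* on the other strand by 351 bases, a gene that ran at 348 to 408 CPM, and that of *Jun* overlaps by 689 bases the antisense gene *Junos*, which was not listed. The library kit keeps strand, but whether strand was used in counting is not given in the sources used here, so reads of those stretches may not be assigned to 1 gene.

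*Atf3* (chr1:191170296-191218039, minus strand) encodes a stress-induced factor of the ATF/CREB family that represses many of its targets. Control pools 3, 4 and 5 stood at 22.6, 22.7 and 20.4 CPM of *Atf3*, and *Gata6STOP/+* pools 1, 3, 4 and 5 at 19.0, 19.0, 19.0 and 21.1 CPM. Only *Gata6STOP/+* pool 5 exceeded the lowest control pool, and this gene came nearest to a difference by genotype. The *Gata6STOP/+* mean was 89.1% of the control mean (log2 difference −0.16, SE 0.0800, 95% confidence interval −0.34 to 0.01, adjusted *P*=0.654, and 0.647 or more under every alternative).

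*Egr1* and *Nr4a1* encode a zinc finger factor and an orphan nuclear receptor. *Egr1* (chr18:34859823-34864984, plus strand) stood at 19.1, 22.6 and 22.1 CPM in the control pools and at 25.3, 17.9, 19.0 and 21.6 CPM in the *Gata6STOP/+* pools. The highest and the lowest of the 7 pools were both *Gata6STOP/+*, pools 1 and 3, and the *Gata6STOP/+* mean was 98.6% of the control mean (log2 difference −0.03, SE 0.118, adjusted *P*=0.969). *Nr4a1* (chr15:101254269-101274795, plus strand) was the steadiest of the 10. It stood at 27.95, 27.0 and 27.8 CPM in the control pools and at 27.9, 26.5, 30.3 and 27.6 CPM in the *Gata6STOP/+* pools. Only *Gata6STOP/+* pool 4 lay above the control range, and the log2 difference was 0.02 (SE 0.0710, adjusted *P*=0.958).

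*Dusp1* and *Btg2* encode products that restrain the response, a phosphatase that inactivates MAP kinases and an antiproliferative protein that promotes mRNA deadenylation. *Dusp1* (chr17:26505590-26562128, minus strand) stood at 35.8, 32.7 and 30.6 CPM in the control pools and at 37.2, 29.1, 36.4 and 34.3 CPM in the *Gata6STOP/+* pools. *Gata6STOP/+* pools 1 and 4 and control pool 3 were the 3 highest, as they were for *Fosb* (log2 difference 0.05, SE 0.0947, adjusted *P*=0.924). The annotated *Dusp1* gene overlaps *Ergic1* on the other strand by 640 bases, a gene at 190 to 204 CPM in every pool. *Btg2* (chr1:134075170-134079120, minus strand) stood at 33.8, 41.8 and 33.8 CPM in the control pools and at 38.9, 36.2, 42.8 and 40.0 CPM in the *Gata6STOP/+* pools. Here control pools 3 and 5 were lowest, and control pool 4 was above 3 of the 4 *Gata6STOP/+* pools (log2 difference 0.12, SE 0.0909, adjusted *P*=0.788). *Ier2* (chr8:84661331-84662852, minus strand), a nuclear protein of the early response whose targets are less well known, stood at 57.2, 46.2 and 52.5 CPM in the control pools and at 46.9, 46.1, 51.5 and 46.5 CPM in the *Gata6STOP/+* pools. Control pools 3 and 5 and *Gata6STOP/+* pool 4 were above the other 4 pools, which lay within 1 CPM of each other (log2 difference −0.12, SE 0.0798, adjusted *P*=0.761).

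**Figure D2:**
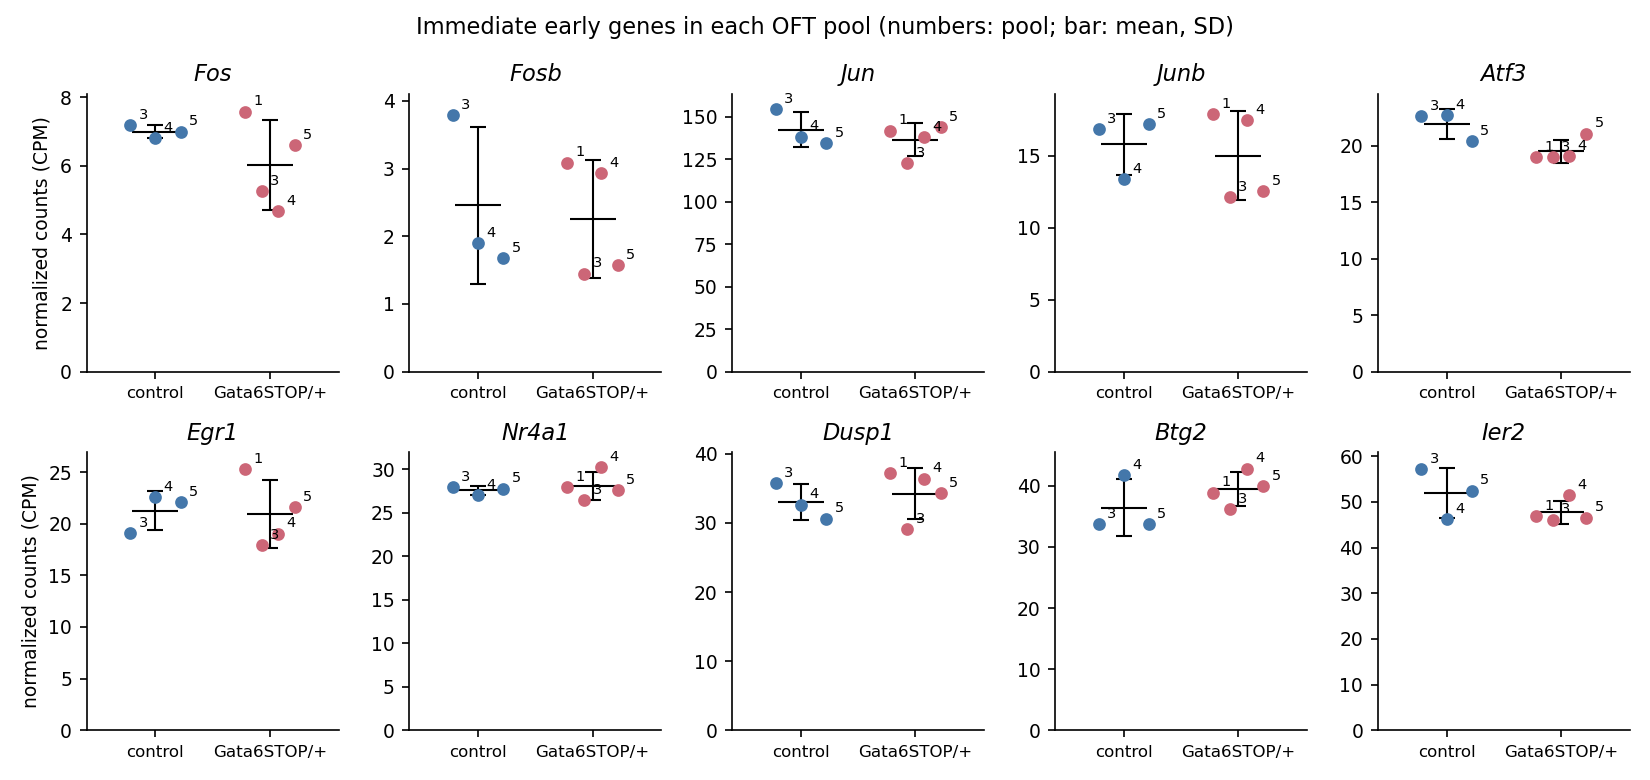
Normalized counts (CPM) of the 10 immediate early genes in each pool, 1 panel per gene, with control pools in blue and *Gata6STOP/+* pools in red, the pool number beside each point, and bars for the mean and SD. The 2 colours overlap in every panel; *Fosb* (1.45 to 3.79 CPM) and *Junb* (12.1 to 17.9 CPM) show a gap within both colours, and *Nr4a1* (26.5 to 30.3 CPM) is nearly level.

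Levels can be compared between genes only per length, here as CPM per kilobase of annotated exon. *Jun* was highest at 43.6 ± 3.005 (SD over the 7 pools), followed by *Ier2* at 32.6 ± 2.80, and they were above 92.9% and 90.04% of all listed genes. *Btg2* (13.9 ± 1.34), *Dusp1* (10.2 ± 0.925), *Atf3* (9.53 ± 0.765) and *Nr4a1* (7.94 ± 0.339) came next, and then *Junb* (6.67 ± 1.10), *Egr1* (4.70 ± 0.572) and *Fos* (2.74 ± 0.454). *Fosb*, at 0.375 ± 0.146, was above 5.001% of all genes. In this order the ranges over the pools overlapped between *Dusp1* and *Atf3*, between *Nr4a1* and *Junb* and between *Junb* and *Egr1*, and did not overlap between the other neighbours. *Jun* was thus above *Fos* in every pool, and the 2 Fos genes were the lowest of the 10.

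How far each gene varied between pools of 1 genotype was described by its residual SD, the SD of log2(CPM + 0.5) around the genotype means. *Fosb* had the highest, 0.492, above 97.6% of all genes, and 3.11 times what counting error alone gives. *Junb* followed at 0.256 (85.2% of genes), *Fos* at 0.226 (80.5%) and *Egr1* at 0.185 (72.2%). *Dusp1* (0.142), *Btg2* (0.135), *Ier2* (0.112) and *Jun* (0.104) were in the middle of all genes. *Atf3* (0.0779) and *Nr4a1* (0.0636) were at the low end, at 1.25 and 1.19 times the counting error and above 19.6% and 11.04% of genes. The median residual SD was 0.138 over the 10 and 0.126 over all genes, with 6 of the 10 above that all-gene median and 4 below it. The ratio of the highest to the lowest pool had a median of 1.27 over the 10 and 1.30 over all genes. Within the group that ratio ran from 1.14 (*Nr4a1*) to 2.61 (*Fosb*). Since scarce genes vary more, each of the 10 was also set against the genes within 1.25-fold of its level. There *Fosb* exceeded 92.0% of 766 genes and *Junb* 92.5% of 1289 genes. *Egr1* exceeded 86.8% of the genes at its level, *Dusp1* 78.1%, *Btg2* 76.3%, *Fos* 69.9%, *Ier2* 64.1% and *Jun* 62.9%. *Atf3* exceeded 16.4% and *Nr4a1* 11.7%.

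**Figure D3:**
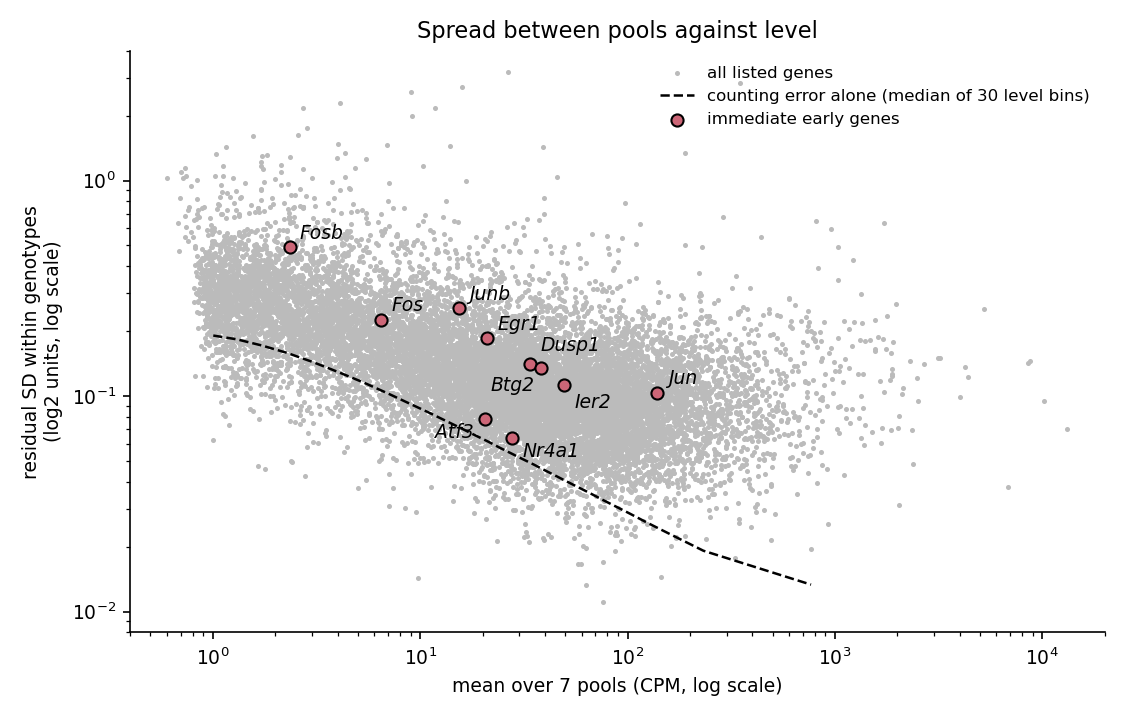
Residual SD within genotypes (log2 units, log axis) against mean CPM over the 7 pools (log axis) for all 14732 listed genes in grey and the 10 immediate early genes in red. The dashed line is the SD that counting error alone gives; *Fosb*, *Junb* and *Egr1* lie in the upper part of the cloud at their level, and *Atf3* and *Nr4a1* lie just above the line.

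The pools were then compared over the 10 genes together, as the mean deviation of each gene's log2(CPM + 0.5) from its own mean over the 7 pools. Control pool 3 (0.13) and *Gata6STOP/+* pool 1 (0.12) were highest, with 8 of the 10 genes above their own mean in each. *Gata6STOP/+* pool 4 (0.03), control pool 4 (−0.007), control pool 5 (−0.02) and *Gata6STOP/+* pool 5 (−0.05) lay near 0. *Gata6STOP/+* pool 3 was lowest, at −0.20, with 0 of the 10 above their mean. That pool held the lowest value of the 7 for 7 of the 10 genes (*Fosb*, *Jun*, *Junb*, *Egr1*, *Ier2*, *Dusp1* and *Nr4a1*), whereas it was the lowest for 15.2% of all listed genes. The highest and lowest pools differed by 0.33 on the log2 scale, or 1.25-fold, and both genotypes had a pool at the high end. Without *Fosb* and *Junb* the difference was 0.22, and pool 3 of *Gata6STOP/+* (−0.15) and pool 1 (0.07) were the extremes. The labels hold no record of dissection order or time, so no relation of these levels to handling was tested.

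**Figure D4:**
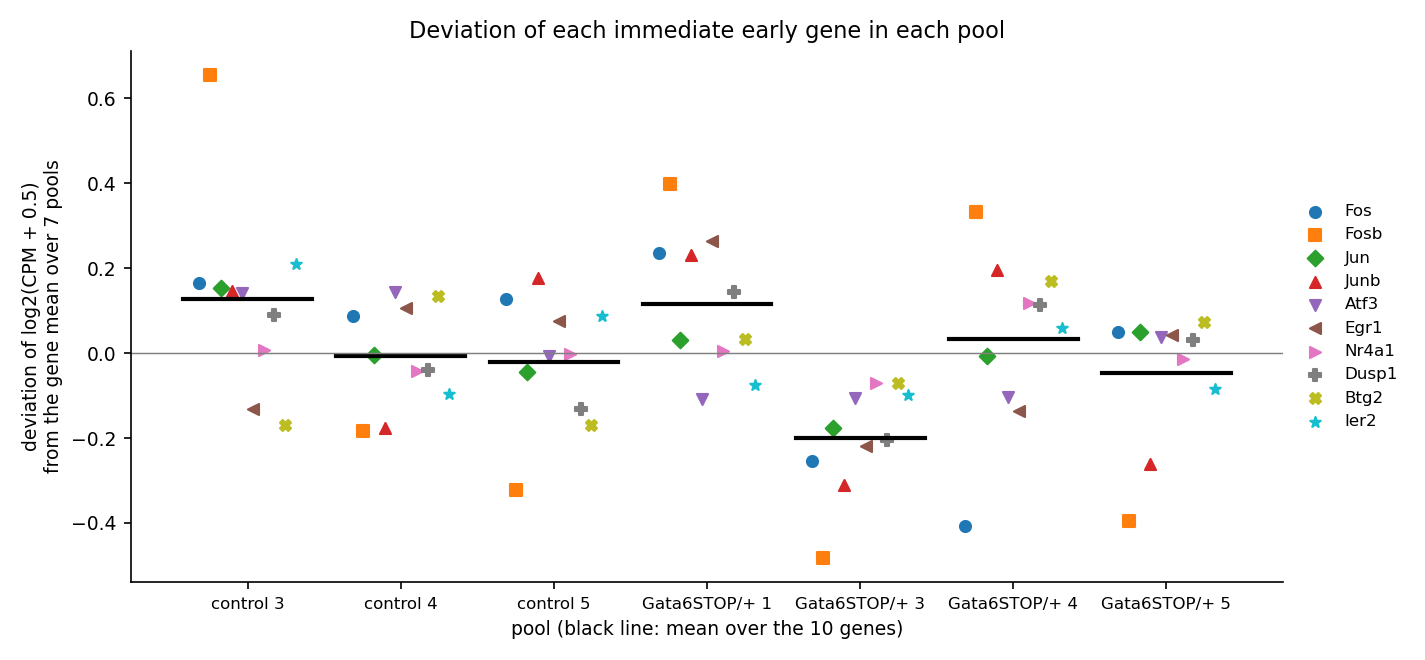
Deviation of log2(CPM + 0.5) of each immediate early gene from its own mean over the 7 pools, by pool, with a marker for each gene and a black line at the mean over the 10. In *Gata6STOP/+* pool 3 all 10 markers lie below 0 (mean −0.20), and in control pool 3 and *Gata6STOP/+* pool 1 the mean is 0.13 and 0.12.

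GC-rich genes and cell type markers also moved between the pools. All 10 genes have a GC content above the all-gene median of 49.5%, from 49.7% (*Btg2*) to 62.6% (*Junb*). In control pool 3, the median deviation was 0.14 over the 10% of genes richest in GC and −0.15 over the 10% poorest, whereas in *Gata6STOP/+* pools 1 and 3 the GC-rich 10% stood at −0.05 in both. After centring each pool within 20 bins of GC content, the level of the 10 genes in control pool 3 went from 0.13 to 0.04, while *Gata6STOP/+* pools 1 (0.17) and 3 (−0.18) were the extremes. *Ier2*, with 60.9% GC, was the one of the 10 whose residual SD moved by more than 1.5 times, from 0.112 to 0.0468, and *Fosb* (0.475), *Fos* (0.234) and *Junb* (0.228) were then the most variable. *Gata6STOP/+* pool 3 also had the highest summed level of 7 macrophage markers, 86.3 CPM against 38.3 to 62.3 CPM in the other pools, and *Gata6STOP/+* pool 1 the lowest of 6 cardiomyocyte markers, 15495 against 18548 to 21764 CPM, with all markers of both lists above 0 in every pool. The 5 cushion mesenchyme markers, all above 0 in every pool, had the same extremes as the 10 genes, with a mean deviation of 0.35 in control pool 3 (summed level 2735 CPM) and −0.30 in *Gata6STOP/+* pool 3 (1854 CPM). Elsewhere they parted from the 10, at 0.21 against −0.02 in control pool 5 and −0.17 against 0.03 in *Gata6STOP/+* pool 4. Marker lists went both ways in *Gata6STOP/+* pool 3, with epicardial markers at 0.24 and neuronal markers at −0.23. The part of these cell types in the pool levels was not tested.

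**Figure D5:**
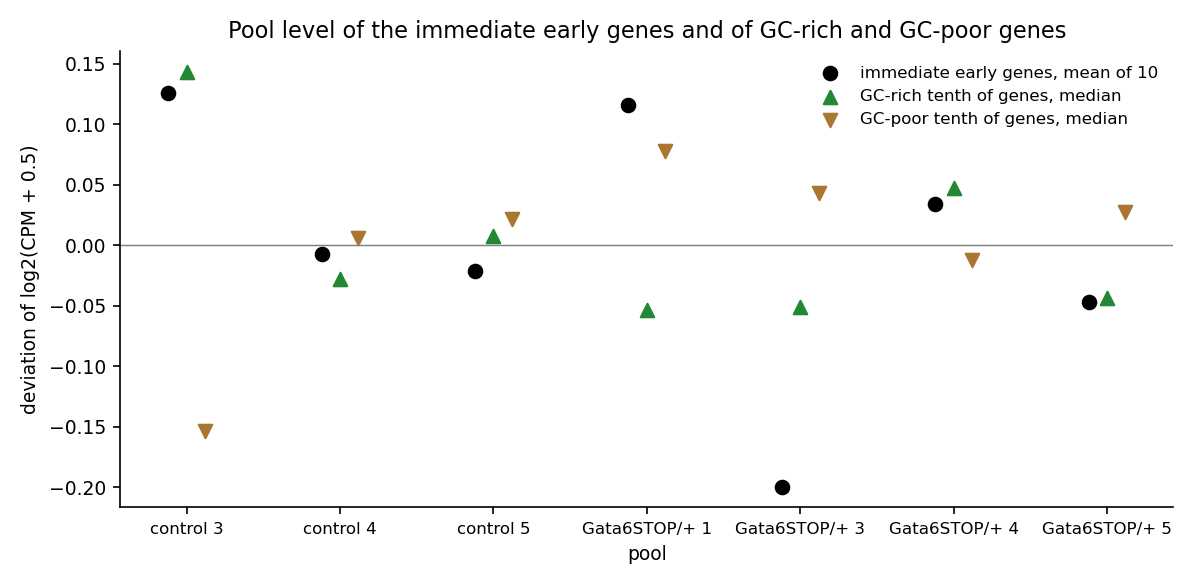
Mean deviation of the 10 immediate early genes (black), and median deviation of the GC-rich (green, 1125 genes) and GC-poor (brown, 1077 genes) 10% of genes, limited to those that averaged 5 CPM or more, by pool, on the log2(CPM + 0.5) scale. The black and green points lie together in control pool 3 (0.13 and 0.14) and apart in *Gata6STOP/+* pool 1 (0.12 and −0.05) and pool 3 (−0.20 and −0.05).

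Among the 11618 other genes that averaged 5 CPM or more, the 5 whose deviations over the 7 pools lay nearest to the mean profile of the 10 were *Iqgap1* (root-mean-square distance 0.0248 log2 units), *Cep170b* (0.0278), *Timp2* (0.0278), *Zfp574* (0.0293) and *Ptk7* (0.0301). *Iqgap1* ran from 146 CPM in *Gata6STOP/+* pool 3 to 188 CPM in *Gata6STOP/+* pool 1. The members themselves lay 0.0536 (*Jun*) to 0.332 (*Fosb*) from that profile. Of the other immediate early genes, 0 were among the nearest 100, and the nearest, *Per1*, ranked 260th at 0.0657. At most 40 of the 11618 genes are such genes, so few would be met in any 100. No conclusion is drawn from this count or rank.

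Of 43 further immediate early genes, 40 were listed (not *Fosl1*, *Egr2* and *Egr4*). Among them 0 passed an adjusted *P* of 0.05, 0 were higher and 4 lower in *Gata6STOP/+* at an unadjusted *P* under 0.05 (4.17% and 3.88% of all genes were so), and 3 did not overlap between genotypes. Their median log2 difference was 0.004, beside −0.07 over the 10. Their pool level had the same extremes as that of the 10, over a narrower span of 0.16: control pool 3 was highest (0.07, summed level 2538 CPM) and *Gata6STOP/+* pool 3 lowest (−0.09, 2226 CPM). *Gata6STOP/+* pool 1, at 0.12 for the 10, stood at −0.01 here, and *Gata6STOP/+* pool 4 was next highest (0.05). No GC-centred level was computed for these 40 genes, whereas GC centring took control pool 3 from 0.13 to 0.04 for the 10. A mean over 40 genes spans less than a mean over 10 where genes vary apart. The 3 with the smallest *P* were *Plk2*, a stress-induced polo-like kinase, *Cebpd*, an acute-phase transcription factor, and *Dusp2*, a nuclear MAP kinase phosphatase. *Plk2* stood at 187, 192 and 178 CPM in the control pools and at 158, 153, 149 and 152 CPM in the *Gata6STOP/+* pools (log2 difference −0.28, SE 0.0541, adjusted *P*=0.186), so every *Gata6STOP/+* pool was below every control pool. The edgeR likelihood ratio test (adjusted *P*=0.0110) and DESeq2 (adjusted *P*=0.00110) called *Plk2*, and limma and the edgeR quasi-likelihood test did not. *Cebpd* stood at 11.5, 11.6 and 11.5 CPM against 9.26, 7.57, 9.23 and 7.996 CPM (log2 difference −0.42, SE 0.105, adjusted *P*=0.276). *Dusp2* stood at 4.89, 6.90 and 6.33 CPM against 4.42, 3.95, 4.52 and 3.69 CPM (log2 difference −0.48, SE 0.145, adjusted *P*=0.401). Both pairs of groups were apart, as were those of 8.47% of all genes. The widest between pools were *Nr4a3*, *Arc* and *Npas4*, with residual SDs of 0.362, 0.325 and 0.301. *Nr4a3* and *Arc* rested on 19 to 64 and 16 to 54 reads per pool, and with a pseudocount of 2 their residual SDs were 0.193 and 0.169, below the 0.252 of *Npas4*. *Npas4*, a calcium-responsive neuronal factor, was highest in *Gata6STOP/+* pools 3 and 4 (9.64 and 9.56 CPM), although the list as a whole was lowest in the first of them.

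The machinery around these genes was more even. The 23 kinases and factors that act upstream, all listed, had a median residual SD of 0.0901 and a pool level that spanned 0.07 on the log2 scale, against 0.33 for the 10. Each of the 23 averaged 11.5 CPM or more, and a mean over more genes with more reads spans less, so the 2 spans are not like for like. *Creb1*, which binds TGACG motifs, was 62.2, 70.2 and 72.4 CPM in the control pools and 81.9, 72.7, 77.1 and 73.8 CPM in the *Gata6STOP/+* pools (log2 difference 0.16, SE 0.0707, adjusted *P*=0.598), the only one of the 23 with an unadjusted *P* under 0.05, where 8.06% of all genes had one. Without control pool 3 its difference was 0.0968, and with GC centring 0.0925. The next by *P* were the kinase gene *Rps6ka3* (0.16, SE 0.0769) and the SRF coactivator gene *Mrtfb* (0.11, SE 0.0672), and the widest were *Rps6ka1*, *Rps6ka5* and *Srf* itself, with residual SDs of 0.155, 0.135 and 0.125. Of 15 AP-1 partners and EGR corepressors, 14 were listed and 1, the EGR corepressor gene *Nab1*, had an unadjusted *P* under 0.05, beside the same 8.06% of all genes (68.4 ± 2.26 CPM in control pools, 76.6 ± 4.41 CPM in *Gata6STOP/+* pools, log2 difference 0.16, SE 0.0629, adjusted *P*=0.543). *Jund* (log2 difference −0.17, SE 0.0940) and *Atf2* (0.12, SE 0.0697) came next, at −0.0449 and 0.0556 without control pool 3, and *Jund*, like *Jun* and *Ier2*, was highest in control pool 3, at 447 CPM against 325 to 365 CPM elsewhere. Among those that varied most were *Batf* and *Maf*, with residual SDs of 0.298 and 0.188.

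Heat-inducible chaperones and hypoxia-inducible genes, which also respond to the state of a tissue, gave a further view of the pools. All 11 chaperone genes were listed, 0 had an unadjusted *P* under 0.05, and their pool level spanned 0.17. The smallest *P* belonged to *Hspa1b* (log2 difference 0.29, SE 0.142), *Hspa1a* (−0.23, SE 0.203) and *Hspb1* (−0.14, SE 0.132, and −0.0140 without *Gata6STOP/+* pool 1), and the largest residual SD to *Hspa1a* (0.321), *Hspb1* (0.234) and *Hsph1* (0.231). *Hspa1a*, an inducible Hsp70 gene that shares near-identical sequence with *Hspa1b* so that reads of the 2 may not be told apart, was 7.38 CPM in control pool 3 and 3.68 to 4.797 CPM in the other 6 pools, and without control pool 3 its residual SD was 0.129. All 14 hypoxia-inducible genes were listed, and 1 of them, *Ankrd37*, had an unadjusted *P* under 0.05, again beside 8.06% of all genes (7.29 ± 1.19 CPM in control pools, 9.18 ± 0.645 CPM in *Gata6STOP/+* pools, adjusted *P*=0.542), with *Bnip3* (log2 difference 0.16, SE 0.132) and *Ndrg1* (−0.13, SE 0.122) next. Their pool level spanned 0.40 and was lowest in control pool 4 (−0.27) and *Gata6STOP/+* pool 1 (−0.22), of which the second was among the highest for the 10 immediate early genes. *Egln3*, *Ddit4* and *Adm* varied most, with residual SDs of 0.341, 0.340 and 0.330. The lowest pool was thus *Gata6STOP/+* pool 3 for the 10 and for the other immediate early genes, *Gata6STOP/+* pool 1 (−0.12) for the chaperones and control pool 4 for the hypoxia-inducible genes, while control pool 3 was highest for the 10 and the hypoxia-inducible genes (0.13 in each) and for the other immediate early genes.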

How the data were processed

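OFT pools of embryonic day 11.5 were grouped by the genotype in their labels, 3 control and 4 *Gata6STOP/+*. The methods name 3 pools per genotype, and all 7 labelled pools were used. Per the submitters' processing notes and the methods, adapters were removed by cutadapt and genes quantified by RSEM against GRCm38, a gene was retained if 3 or more pools reached 1 CPM, and the authors deposited CPM scaled by edgeR's TMM method. The deposited CPM values of each pool were whole multiples of what 1 read is worth (100% of values within 0.01), so read counts were recovered, and intervals on them cover counting error only. Genes were tested with limma 3.58.1 (R 4.3.3; lmFit and trended eBayes) as 2-sided tests of log2(CPM + 0.5), with Benjamini-Hochberg adjustment over all 14732 genes and a threshold of 0.05. Fold changes on this scale understate the change of scarce genes such as *Fosb*. EdgeR 4.0.16 and DESeq2 1.42.0 were run on the recovered reads as alternatives. Limma, with and without the replicate number as a block, and the edgeR and DESeq2 tests without it were run on simulated reads. The check covered limma's calls of changed genes and the median error of the fold changes, and set no limit on false calls. The edgeR tests with the block and the GC centring were not simulated. Positions, exon lengths and GC content of the longest transcript came from GENCODE M21 (14716 identifiers matched). The genes named were the 10, *Gata6*, the 3 with the smallest *P* and the 3 with the largest residual SD of each further gene list, and the 5 nearest by pool profile. Of the genes that this rule names, 1 is not reported here. Genes named for how pools stood apart (*Xist*, *Nppa*), for overlapping a member (*Prdx2*, *Ergic1*, *Junos*) or for their rank (*Per1*) were chosen after their values were seen. The 10 genes and all lists were chosen with earlier results of these data known, and the GC centring and the pool level without *Fosb* and *Junb* were added after seeing the data.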

Additional observations from a re-analysis of the deposited data

Results flagged for a closer look

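In the 4 *Gata6STOP/+* pools, 2 of the 10 genes had 1 pool far from the other 3 by Dixon's test at its 95% level, which chance alone flags in about 1 of 20 groups. *Atf3* stood at 21.1 CPM in *Gata6STOP/+* pool 5 and at 19.0 CPM in each of the other 3 pools, with control pools at 20.4 to 22.7 CPM. *Ier2* stood at 51.5 CPM in *Gata6STOP/+* pool 4 and at 46.1 to 46.9 CPM in the other 3, with control pools at 46.2 to 57.2 CPM. In both genes the pool that stood apart lay within the range of the control pools. The 3 control pools were too few for this test.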

How the results depend on the processing

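Under all 18 alternatives, 0 of the 10 immediate early genes passed an adjusted *P* of 0.05, and the smallest adjusted *P* of any was 0.493. The count over all genes, 0 in limma, was 1 with a pseudocount of 0.1, 105 with edgeR's likelihood ratio test and 88 with DESeq2, and 0 to 13 when each pool was left out in turn (13 without control pool 4, 2 without *Gata6STOP/+* pool 3). With the replicate number as a block it was 14 in limma, 13 with the edgeR quasi-likelihood and 118 with the likelihood ratio test. Only *Gata6STOP/+* pool 1 has its number, so the block takes it out of the comparison. The limma differences with the block are those without that pool (*Fos* −0.331 and *Gata6* −0.423 in both), where limma without a block called 1 gene. Samples sharing a number did not deviate together (correlations −0.05, −0.27 and −0.02), and no pool correlated best with its own number. These few values cannot settle whether pools with the same number were collected together, and the labels do not say. The block called 0 of the 10. Of 179 values of the 10 differences, 168 kept their direction, and among them the limma block repeats the values without *Gata6STOP/+* pool 1. Leaving out 1 pool took *Fosb* from −0.27 to 0.22, *Junb* from −0.20 to 0.00724, *Egr1* from −0.121 to 0.0408, *Dusp1* from −0.00412 to 0.124, *Nr4a1* from −0.0136 to 0.0495, *Hspa1a* from −0.38 to 0.0402 and *Bnip3* from −0.0119 to 0.26, and GC centring put *Egr1* at 0.0241. Without a change of sign, leaving out 1 pool took *Fos* from −0.331 to −0.117, *Jun* from −0.0996 to −0.00149, *Ier2* from −0.197 to −0.0453 and *Btg2* from 0.0684 to 0.220, with the values nearest 0 reached without control pool 3 for *Jun*, *Ier2* and *Btg2* and without *Gata6STOP/+* pool 4 for *Fos*. GC centring also put *Jun* at −0.0143, *Junb* at −0.0121, *Fosb* at −0.0411, *Ier2* at −0.0443, *Dusp1* at 0.0818, *Nr4a1* at 0.0753, *Jund* at −0.0962 and *Atf2* at 0.0549. The median difference over the 10 ran from −0.12 to 0.02, their median residual SD from 0.128 to 0.154 and the range of pool levels from 0.22 to 0.35. Of the residual SDs, those of the 10 moved by over 1.5 times for *Fosb* (0.322 with a pseudocount of 2), *Btg2* (0.0861 without control pool 4), *Dusp1* (0.0894 without *Gata6STOP/+* pool 3), *Nr4a1* (0.0331 without *Gata6STOP/+* pool 4) and, with GC centring, *Ier2*. Those of other named genes did so for *Nr4a3*, *Arc* and *Batf* (0.193, 0.169 and 0.185 with a pseudocount of 2), *Hspa1a* (0.129 without control pool 3), *Ddit4* and *Adm* (0.158 and 0.204 without control pool 4) and *Srf* and *Hspb1* (0.0795 and 0.131 without *Gata6STOP/+* pool 1). The cause of these changes was not tested. Depth limits *Fosb* most, at 30 to 88 reads per pool.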
